A study of Mus musculus with 9 samples.

Results

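The 34 interferon stimulated genes described here were taken by symbol from a table of 46078 mouse genes, and all 34 were found and passed the filter on low counts. They are the transcription factors Stat2, Irf1, Irf7 and Irf9, the ISG15 system, the cytosolic RNA sensors, the IFIT, OAS, MX and GBP families, and 12 further effectors. Transcript 3′ ends were sequenced in 6 thymic T cell lymphomas induced by MYCN and in 3 control preparations of splenic CD4+ T cells. All samples carry the strain label C57BL/6J, and the labels state no age, promoter or batch. Each library keeps its label number, namely lymphoma 34, 53, 56, 70, 72 and 86 and CD4 1, 2 and 3. Independence of the lymphomas, and separate animals for the CD4 preparations, are not stated, so p-values measure the spread between these samples only.

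Interferons are secreted proteins that signal through surface receptors and Janus kinases. Type I interferon leads to a complex with STAT2 and IRF9 that binds the interferon stimulated response element (ISRE), while interferon gamma acts mainly through the gamma activated site (GAS). The genes switched on in this way encode sensors of foreign RNA and proteins that block viral replication, and many are also expressed at a basal level in resting lymphocytes.

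Promoter sequences show what several of the genes share apart from their name. The ISRE core was searched as GAAA, any 2 bases and GAAA, and the GAS as TTC, any 3 bases and GAA, on both strands of the RefSeq window (build GRCm38.p6) from 250 bases before to 50 after each transcript start. Of the 34 genes, 26 had at least 1 window, and 14 of these (53.8%) held an ISRE core, against 3.99% of all 27025 genes with a window and 3.44% of the 32851 single windows. A GAS match was present in 7 of the 26 (26.9%), against 9.55% of all genes and 8.3% of single windows. The GAS match of Bst2 overlapped one of its ISRE matches. The 250 bases before the start are given for the genes on which the results turn, with ISRE cores in capitals, or the GAS in the case of Irf1. Isg15, Ifit1, Ifit3 and Oas1a are shown as genes that were lower in lymphoma, Ifit2 and Rsad2 as the 2 that did not pass the test, and Irf1 as the factor with a GAS match.
Isg15: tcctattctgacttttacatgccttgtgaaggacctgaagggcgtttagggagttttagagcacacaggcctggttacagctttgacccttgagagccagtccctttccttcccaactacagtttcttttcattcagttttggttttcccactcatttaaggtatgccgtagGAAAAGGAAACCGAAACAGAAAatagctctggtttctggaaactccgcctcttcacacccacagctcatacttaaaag
Ifit1: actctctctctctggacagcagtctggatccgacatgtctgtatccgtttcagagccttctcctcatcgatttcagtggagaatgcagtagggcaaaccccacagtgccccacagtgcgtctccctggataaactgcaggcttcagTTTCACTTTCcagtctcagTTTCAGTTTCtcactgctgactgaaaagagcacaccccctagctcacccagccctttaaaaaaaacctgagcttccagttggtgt
Ifit3: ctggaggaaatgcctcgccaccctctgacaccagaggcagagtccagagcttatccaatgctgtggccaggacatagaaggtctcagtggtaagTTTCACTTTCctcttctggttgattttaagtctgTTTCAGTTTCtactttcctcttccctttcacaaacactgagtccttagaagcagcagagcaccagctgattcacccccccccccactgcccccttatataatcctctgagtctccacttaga
Oas1a: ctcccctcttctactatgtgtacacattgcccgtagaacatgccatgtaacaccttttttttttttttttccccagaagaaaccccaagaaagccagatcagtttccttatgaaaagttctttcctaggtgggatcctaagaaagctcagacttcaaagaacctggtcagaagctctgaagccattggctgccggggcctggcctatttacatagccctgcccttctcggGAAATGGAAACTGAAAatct
Ifit2: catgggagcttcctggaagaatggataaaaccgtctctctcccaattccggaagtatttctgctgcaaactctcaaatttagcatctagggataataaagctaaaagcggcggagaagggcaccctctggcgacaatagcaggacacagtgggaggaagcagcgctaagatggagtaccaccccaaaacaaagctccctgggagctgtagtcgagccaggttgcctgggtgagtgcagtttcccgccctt
Rsad2: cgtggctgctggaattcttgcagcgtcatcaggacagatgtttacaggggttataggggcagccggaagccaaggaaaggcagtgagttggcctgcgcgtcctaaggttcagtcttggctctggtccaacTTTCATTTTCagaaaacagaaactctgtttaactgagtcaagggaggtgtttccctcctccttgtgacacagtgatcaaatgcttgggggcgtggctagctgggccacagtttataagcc
Irf1: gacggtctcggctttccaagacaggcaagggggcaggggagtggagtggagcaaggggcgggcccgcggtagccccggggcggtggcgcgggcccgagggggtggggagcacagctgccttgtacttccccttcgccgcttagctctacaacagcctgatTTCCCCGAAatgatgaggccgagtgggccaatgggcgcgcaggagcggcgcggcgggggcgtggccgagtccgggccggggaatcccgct
The Isg15 stretch held 3 overlapping cores, Ifit1, Ifit3 and Oas1a held 2 each, Rsad2 held 1, and the upstream window of Ifit2 held 0. These windows lie at chr4:156200819-156201068 (Isg15, minus strand), chr19:34640639-34640888 (Ifit1, plus), chr19:34583279-34583528 (Ifit3, plus), chr5:120907526-120907775 (Oas1a, minus), chr19:34550444-34550693 (Ifit2, plus), chr12:26456453-26456702 (Rsad2, minus) and chr11:53769764-53770013 (Irf1, plus). A match describes the letters in a window and does not show that a factor binds there.

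**Figure D1:**
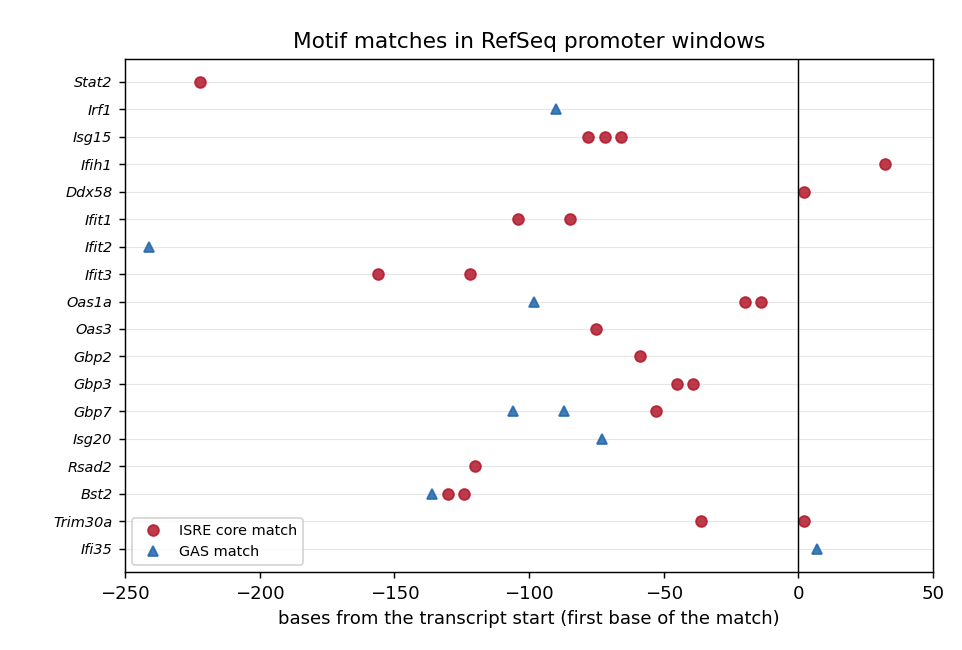
Positions of ISRE core matches (circles) and GAS matches (triangles) in the promoter windows of the genes with any match, in bases from the transcript start at 0. The 3 matches of Isg15 lie 78, 72 and 66 bases before the start, and Ifit2 has a GAS match only, 241 bases before it.

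Reads counted in genes ranged from 11170704 to 15769679 in the lymphomas and from 8099960 to 10808828 in the CD4 libraries. Of 6 T cell markers, 0 passed the threshold of the fit described below, and their median log2 fold change was -0.34. Mean Cd3e and Cd3d were 176 and 453 CPM (counts per 1000000 of the scaled library) in lymphoma, against 157 and 432 CPM in CD4. Cd3g, Cd247, Lat and Lck had lower means in lymphoma, with Lck at 540 CPM against 770 CPM in CD4. Cd4 itself fell from 240.0 CPM in CD4 to 35.3 CPM in lymphoma. Read classes also differed between the groups without overlap. Reads in genes made up 38.7% to 49.1% in lymphoma and 27.8% to 35.0% in CD4, and reads outside annotated features 16.6% to 22.5% and 30.4% to 33.3%. Their part in the results was not tested. The CD4 preparations also held transcripts of other spleen cells. The summed level of 10 B cell markers was 1950 to 2146 CPM in CD4 and 22.6 to 63.9 CPM in lymphoma, and all 10 were lower in every lymphoma. For 10 markers of plasmacytoid dendritic cells, which are strong interferon producers, the sums were 961 to 979 CPM in CD4 and 106 to 393 CPM in lymphoma, with 9 of 10 lower. Irf8, which is also a B cell gene, and Tcf4 made up most of the CD4 sums. Their CD4 means were 322 and 282 CPM, and that of Siglech was 64.6 CPM. The sum of 15 myeloid markers overlapped, at 1021 to 1281 CPM in CD4 and 94.1 to 2237 CPM in lymphoma, with 6 of 15 lower. Only lymphoma 56 was not below the CD4 libraries, and S100a8 and S100a9 made up most of its sum, at 1035 and 989 CPM. Of all tested genes 21.9% were lower in the fit described below, and 22.3% lay below all CD4 libraries in every lymphoma. The part of these cells was not tested either, and in bulk RNA fewer cells of a type and less RNA per cell cannot be told apart. Tissue of origin coincided with the groups, as did sex-linked transcripts. Xist averaged 547 CPM in CD4 and 7.98 CPM in lymphoma, and Ddx3y on the Y chromosome 0.55 CPM in CD4 and 149 CPM in lymphoma. Tissue and sex therefore cannot be told apart from lymphoma.

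Interferon stimulated genes were lower in lymphoma almost throughout. In the edgeR quasi-likelihood fit, with p-values adjusted by Benjamini-Hochberg over all 15401 tested genes, 32 of 34 were lower and 0 were higher. Of all tested genes 46.6% passed the same threshold, 21.9% as lower and 24.7% as higher. The median log2 fold change was -2.58, and single genes ranged from -4.18 (Oas2) to -0.11 (Ifit2), beside a median of 0.04 over all tested genes. A fall of at least 2-fold was met by 31 of the 34, against 17.2% of all tested genes, and a fall of at least 4-fold by 24, against 10.2%. In 30 of 34 genes every lymphoma lay below every CD4 library, against 22.3% of all tested genes. The exceptions were Ifit2, Rsad2, Bst2 and Rtp4. The summed level of the 34 genes was 357 to 560 CPM in the lymphomas and 2211 to 2509 CPM in CD4.

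**Figure D2:**
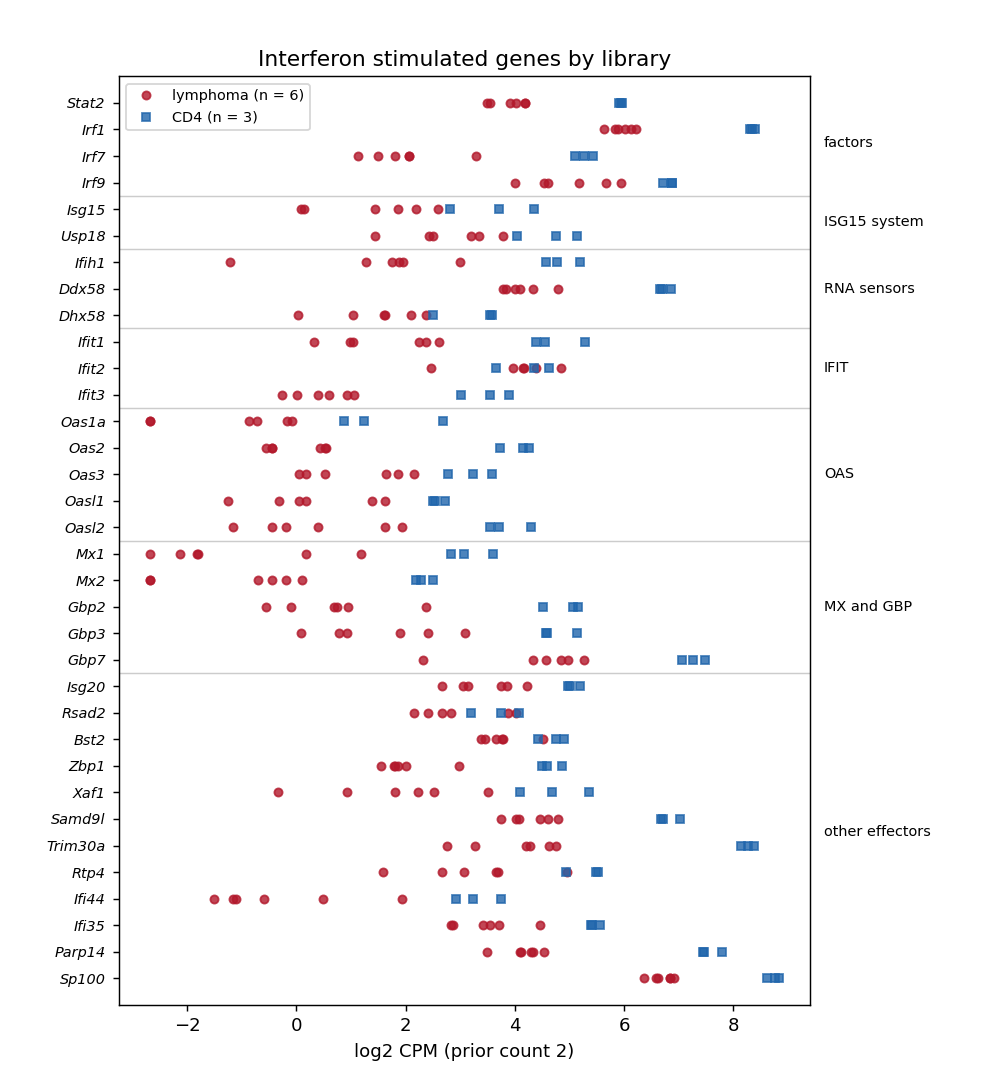
Level of each of the 34 genes in log2 CPM (prior count 2), with circles for the 6 lymphomas and squares for the 3 CD4 libraries, grouped by role. The circles lie left of the squares without overlap in 30 genes, and they mix in Ifit2, Rsad2, Bst2 and Rtp4.

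All 4 transcription factors fell, with a median log2 fold change of -2.21. Irf1, the factor induced most directly by interferon gamma, stood at 59.1, 74.3, 56.5, 64.4, 49.3 and 69.7 CPM in lymphomas 34, 53, 56, 70, 72 and 86, and at 335, 323 and 316 CPM in CD4 1, 2 and 3. Both groups were tight and far apart, and the log2 fold change was -2.38 (SE 0.15, edgeR adjusted p 4.78e-07). Stat2, the subunit that carries the activation domain of the type I complex, stood at 14.8, 16.1, 11.5, 18.1, 18.1 and 11 CPM in the lymphomas in the same order, and at 61.5, 59.8 and 62.5 CPM in CD4. It was 4.09-fold lower (log2 fold change -2.03, SE 0.20, edgeR adjusted p 1.03e-05). Irf7, the factor that amplifies interferon alpha production, had 4.0, 2.65, 2.04, 9.55, 3.34 and 4.04 CPM in the lymphomas and 34.3, 43.1 and 38.3 CPM in CD4. Lymphoma 70 was the highest of the lymphomas for Irf7 and still lay below all CD4 libraries. The change of Irf7 was 8.98-fold, the largest among the 4 factors. Irf9, the DNA-binding subunit of the type I complex, had the smallest fall of the 4, at -1.69 (SE 0.35, edgeR adjusted p 0.00232). Its lymphoma levels spread from 15.8 CPM in lymphoma 56 to 61.7 CPM in lymphoma 72, all below the 105 to 118 CPM of CD4.

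ISG15 is a ubiquitin-like protein that is attached to other proteins, and USP18 removes it and also damps receptor signalling. Isg15 had 0.903, 5.84, 0.946, 4.41, 2.55 and 3.47 CPM in lymphomas 34, 53, 56, 70, 72 and 86, and 6.87, 20.2 and 12.9 CPM in CD4 1, 2 and 3. The groups came close, with lymphoma 53 just under CD4 1. The log2 fold change was -2.14 (SE 0.57, edgeR adjusted p 0.00914), and without CD4 2 it was -1.71 with an edgeR adjusted p of 0.0668. Usp18 fell from 26.1 ± 9.43 CPM (SD, n = 3) in the CD4 group to 7.64 ± 4.0 CPM (SD, n = 6), or 3.41-fold (SE 0.44 on the log2 scale, edgeR adjusted p 0.00575).

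The 3 cytosolic sensors of double-stranded or uncapped RNA were also lower, with a median log2 fold change of -2.56. Ddx58, which encodes RIG-I, had 15.8, 14.1, 13.7, 27.4, 20.03 and 16.9 CPM in the lymphomas and 101, 115 and 103 CPM in CD4. It was 5.91-fold lower (log2 fold change -2.56, SE 0.22, edgeR adjusted p 3.31e-06). Ifih1, which encodes MDA5, was 8.29-fold lower (log2 fold change -3.05, SE 0.59, edgeR adjusted p 0.00137) and was the most uneven sensor among lymphomas. It reached 7.84 CPM (128 counts) in lymphoma 70 but only 0.274 CPM (3 counts) in lymphoma 53. Dhx58, which encodes the regulator LGP2, showed the weakest fall of the 3, at -1.71 (SE 0.50, edgeR adjusted p 0.0145), and its call was lost without CD4 2 (edgeR adjusted p 0.0656) or without CD4 3 (0.0625).

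The IFIT genes, whose proteins bind foreign RNA ends and block its translation, did not move as a unit. On chromosome 19 (GRCm38, GENCODE M21) Ifit2 spans 34550694 to 34576419, Ifit3 spans 34583531 to 34588731 and Ifit1 spans 34640871 to 34650009, all on the plus strand, with 7112 bases between Ifit2 and Ifit3. Ifit3b, which did not pass the filter on low counts, lies between Ifit3 and Ifit1 (34607970 to 34613401). Reads that align to several places are not counted, so IFIT genes with near-identical copies are uncertain. Ifit3 had 1.35, 1.92, 1.75, 0.674, 0.851 and 1.16 CPM in lymphomas 34, 53, 56, 70, 72 and 86, and 7.92, 14.6 and 11.6 CPM in CD4. It was 8.85-fold lower (log2 fold change -3.15, SE 0.42, edgeR adjusted p 1.02e-04). Ifit1 had 1.1, 4.57, 1.82, 5.02, 1.9 and 5.92 CPM in the lymphomas and 20.7, 38.8 and 23.3 CPM in CD4, and was 8.14-fold lower (log2 fold change -3.02, SE 0.48, edgeR adjusted p 3.33e-04). For both genes every lymphoma was below every CD4 library. Ifit2, their neighbour, had 17.5, 5.39, 15.4, 17.7, 28.7 and 20.9 CPM in the lymphomas and 12.5, 20.2 and 24.6 CPM in CD4. The groups overlapped over most of their range, and the log2 fold change of Ifit2 was -0.11 (SE 0.41, edgeR adjusted p 0.843).

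The difference between the neighbours was tested as a ratio within each library. On the log2 scale the ratio of Ifit2 to Ifit3 was 3.55 ± 1.22 (SD, n = 6) in lymphoma and 0.73 ± 0.32 (SD, n = 3) in CD4, with every lymphoma above every CD4 library (exact two-sided permutation p = 0.0238). The ratio of Ifit2 to Ifit1 was 2.40 ± 1.40 (SD, n = 6) and -0.53 ± 0.53 (SD, n = 3), again fully apart (two-sided exact permutation test, p = 0.0238). This is the smallest p that the 84 assignments of 6 and 3 libraries allow, and adjustment over the 2 ratios leaves it at 0.0238. Both ratios share Ifit2 and were chosen after the values had been seen. Ifit1 and Ifit3 were already fully apart between the groups, so the p-values add no independent support. As given above, Ifit1 and Ifit3 had 2 ISRE cores each in their windows, Ifit2 had 0 and Rsad2 had 1. Across the 26 genes with a window, 13 of 14 with a core were lower (median log2 fold change -2.81). Of those without a core, 11 of 12 were lower (median -2.25), and of all tested genes 21.9%. The part of these motifs in the changes was not tested.

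**Figure D3:**
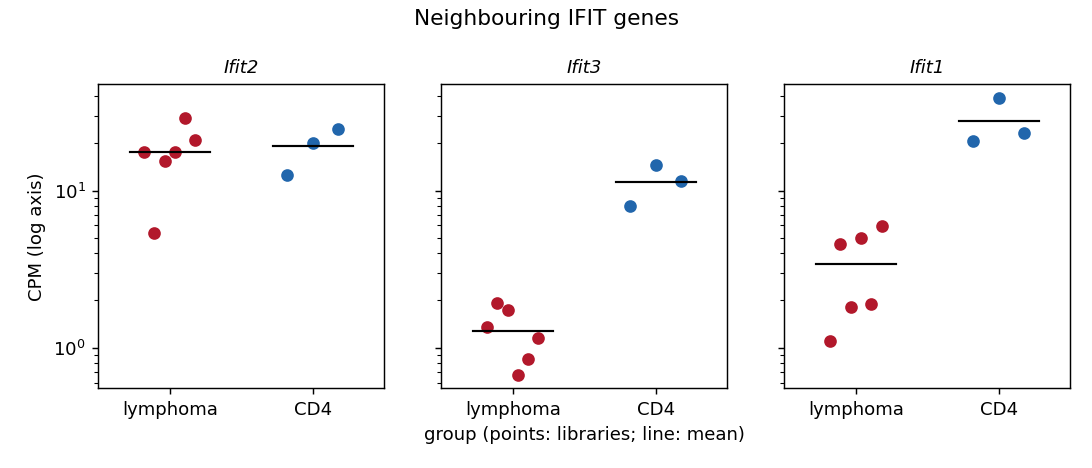
Levels of Ifit2, Ifit3 and Ifit1, from the same stretch of chromosome 19, in CPM on a log axis. Each library has a point and each group a line at its mean. Lymphomas lie below CD4 for Ifit3 and Ifit1, while the groups mix for Ifit2, whose lowest lymphoma is 53 at 5.39 CPM.

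The OAS genes encode oligoadenylate synthetases, which sense double-stranded RNA and activate RNase L, and OAS-like relatives. All 5 fell, with a median log2 fold change of -3.05. Oas2 changed most of all 34 genes, from 13.2, 17.5 and 19.1 CPM in CD4 to 0.58, 1.19, 0.582, 1.29, 0.524 and 1.3 CPM in lymphomas 34, 53, 56, 70, 72 and 86. That is an 18.1-fold fall (log2 fold change -4.18, SE 0.41, edgeR adjusted p 9.40e-06). Oas3, its neighbour 3245 bases away on chromosome 5, fell less, at -1.99 (SE 0.54, edgeR adjusted p 0.00973, and 0.0503 without CD4 2). The difference between Oas2 and Oas3 was not tested. Oasl2 fell by 3.23 and Oasl1 by 2.11 on the log2 scale (edgeR adjusted p 0.00165 and 0.0186), and the call of Oasl1 was lost without CD4 3 (0.0584). Oas1a had 0 counts in lymphomas 53 and 56 and at most 12 counts elsewhere in lymphoma. Its CD4 levels were uneven, at 6.3, 1.68 and 2.2 CPM, and without CD4 1 its log2 fold change moved from -3.05 to -2.24 and its edgeR adjusted p from 0.0240 to 0.152.

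MX and GBP proteins are large GTPases that act on viral capsids and on vacuoles of intracellular pathogens, and all 5 genes listed here fell (median log2 fold change -3.39). Gbp2 had 0.774, 1.46, 1.53, 1.78, 0.524 and 5.05 CPM in the lymphomas and 33.1, 22.7 and 35.5 CPM in CD4, and was 16.4-fold lower (log2 fold change -4.03, SE 0.55, edgeR adjusted p 1.21e-04). Gbp7 stood at 19.99, 4.84, 23.7, 38.2, 31.3 and 28.6 CPM in the lymphomas and 154, 178 and 133 CPM in CD4. Lymphoma 53 was the low one for Gbp7, and the log2 fold change was -2.66 (SE 0.43). Gbp3 fell by 2.95 (edgeR adjusted p 0.00116). Mx2 had 0 counts in lymphomas 53 and 56 and at most 15 counts in the others, against 46 to 49 counts in CD4. This was a 10.5-fold fall (log2 fold change -3.39, SE 0.91, edgeR adjusted p 0.00897). Mx1 had 0 to 2 counts in lymphomas 34, 56, 72 and 86, but 23 in lymphoma 53 and 16 in lymphoma 70, against 73 to 100 counts in CD4. Its log2 fold change was -4.01 (SE 0.999, edgeR adjusted p 0.00637), and -5.02 without lymphoma 53. Reads that align to several places are not counted, so members of these families with near-identical copies are uncertain.

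Of the 12 further effectors, 11 were lower, and the median log2 fold change of the 12 was -2.27. Trim30a, a regulator of inflammatory signalling, fell from 310, 334 and 282 CPM in CD4 to 19.1, 6.57, 9.53, 24.5, 18.3 and 26.9 CPM in lymphomas 34, 53, 56, 70, 72 and 86. That was 17.6-fold (log2 fold change -4.14, SE 0.37, edgeR adjusted p 6.67e-06). Parp14, an ADP-ribosyltransferase, had the smallest edgeR adjusted p of the 34 genes (3.54e-07). It fell 10.6-fold, from 174, 223 and 176 CPM in CD4 to 11.1 to 22.9 CPM in the lymphomas. Sp100, a nuclear body protein, fell from 394 to 455 CPM in CD4 to 82.3 to 121 CPM in lymphoma, and the spread among lymphomas was only 1.47-fold between lowest and highest.

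Zbp1, a sensor of left-handed nucleic acid that can trigger cell death, was 6.15-fold lower, Samd9l, a growth-restraining antiviral factor, 5.64-fold and Xaf1, a factor that promotes apoptosis, 6.08-fold. The exonuclease gene Isg20 fell 2.88-fold, Ifi35 3.73-fold and Ifi44 9.78-fold. Ifi44 had 40 counts in lymphoma 53 and 3 to 19 in the other lymphomas, and its log2 fold change was -4.27 without lymphoma 53, against -3.29 with it.

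Rtp4, Bst2 and Rsad2 were the effectors whose groups overlapped. Rtp4, a chaperone of receptors, had 8.19, 6.21, 2.84, 30.7, 12.5 and 12.7 CPM in the lymphomas and 30.6, 45.7 and 44.4 CPM in CD4, so lymphoma 70 reached the level of CD4 1. The log2 fold change was -1.72 (SE 0.55, edgeR adjusted p 0.0237). Leaving out CD4 2 (edgeR adjusted p 0.0760) or CD4 3 (0.0721), or using no filter on low counts (0.0669), ended the call. Bst2, the tethering factor that holds budding virions and a surface marker of plasmacytoid dendritic cells, had 10.3, 22.7, 13.4, 10.8, 13.6 and 12.4 CPM in the lymphomas and 21.4, 26.6 and 29.6 CPM in CD4. Only lymphoma 53 overlapped the controls. Its plasmacytoid marker sum was 393 CPM, against 106 to 146 CPM in the other lymphomas. Of the 10 markers, 4 were highest there, with Irf8 at 269, Tcf4 at 71.1, Cox6a2 at 16.4 and Runx2 at 5.84 CPM, while Siglech was at 0.0913 CPM and Klk1 and Cd209d at 0. Their part in the level of Bst2 was not tested. The fall of Bst2 was 1.87-fold (log2 fold change -0.90, SE 0.27, edgeR adjusted p 0.0173). That call did not hold on leaving out CD4 2 (edgeR adjusted p 0.0551) or CD4 3 (0.0781), or with lymphomas 34, 70 and 72 averaged (0.0645). Rsad2, which encodes the antiviral enzyme viperin, had 6.19, 6.94, 5.17, 16.1, 4.32 and 14.4 CPM in the lymphomas and 9.06, 16.8 and 13.2 CPM in CD4. Lymphomas 70 and 86 lay within the CD4 range and the other 4 below it, and the change of -0.55 (SE 0.45) did not pass the test (edgeR adjusted p 0.336).

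**Figure D4:**
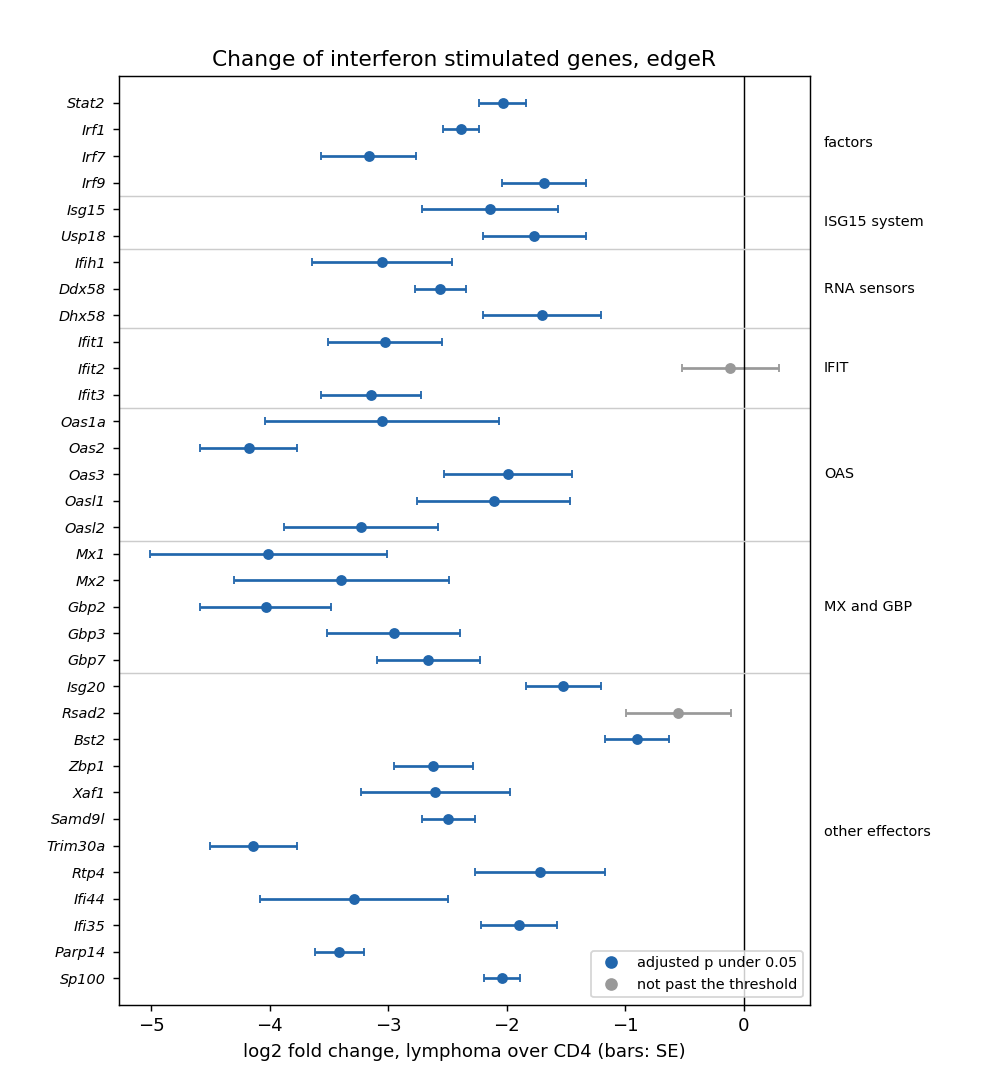
Log2 fold change of each gene, lymphoma over CD4, with its standard error, grouped by role. All 34 estimates lie left of 0, and only Ifit2 and Rsad2 (grey) did not pass the threshold.

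The lymphomas differed among themselves in these genes. The SD of log2 CPM among the 6 lymphomas had a median of 0.82 over the 34 genes and of 0.47 over all 15401 tested genes, while among the CD4 libraries the medians were 0.30 and 0.36. In 34 of 34 genes the SD was larger among lymphomas than among CD4 libraries, which held for 59.6% of all tested genes and for 74.3% of all genes lower in lymphoma. In most of these genes the lymphoma counts were the lower ones. The highest count was in a lymphoma for Ifit2 (439, against 268 in CD4), Rsad2 (263, against 144) and Rtp4 (501, against 484). Low counts widen the spread of log values. The share of that effect was not tested. Irf1 and Sp100 were the most even (SD 0.21 each), and Mx1 (1.51), Ifih1 (1.42), Xaf1 (1.33) and Ifi44 (1.31) the most uneven.

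Lymphoma 70 was the highest lymphoma in 16 of 34 genes (47.1%), where it was the highest in 13.6% of all tested genes. Those 16 included Stat2, Irf7, Usp18, all 3 RNA sensors, Oas3, Gbp7, Zbp1 and Xaf1. Its median deviation from the lymphoma mean was 0.73 log2 units over the 34 genes and 0.03 over all tested genes. Lymphoma 56 stood at the other end. It was the highest in 0 genes and the lowest in 10 (29.4%, against 12.2% of all tested genes), with a median deviation of -0.52. Lymphoma 70 had 103 CPM of summed myeloid markers, 37.9 CPM of B cell markers and 127 CPM of plasmacytoid markers, and lymphoma 56 had 2237, 22.6 and 111 CPM. Most of the 2237 CPM came from S100a8 and S100a9, at 1035 and 989 CPM. The part of these cells in the difference was not tested. Even in lymphoma 70 the summed level of the 34 genes (560 CPM) was well under the 2211 CPM of the lowest CD4 library.

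Set against lymphoma 72, lymphoma 70 was higher in 28 of the 34 genes, with a median difference of 0.70 log2 units, beside 51.3% of all tested genes and a median of 0.01. This compares 2 single libraries and has no replicate check. In the 16 genes where lymphoma 70 was the highest lymphoma it exceeds lymphoma 72 by construction, so the count is no separate observation. Not every gene followed lymphoma 70. Ifit3 was lowest there, Irf9 and Ifit2 were highest in lymphoma 72, Oasl2 was highest in lymphoma 34, and Gbp2, Gbp3 and Ifit1 were highest in lymphoma 86.

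Lymphoma 53 was the most mixed library. It was the highest lymphoma in 8 genes (Irf1, Isg15, Ifit3, Oasl1, Mx1, Bst2, Ifi44 and Ifi35) and the lowest in 9 (26.5%), 2 of which were ties with lymphoma 56 at 0 counts. Over all tested genes it was the highest in 30.5% and the lowest in 33.3%, so these shares were no larger than its shares over all genes. Within CD4, library 2 was the highest in 21 of 34 genes (61.8%, against 32.1% of all tested genes), with a median deviation of 0.15 log2 units. The calls lost without CD4 2 are given above.

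**Figure D5:**
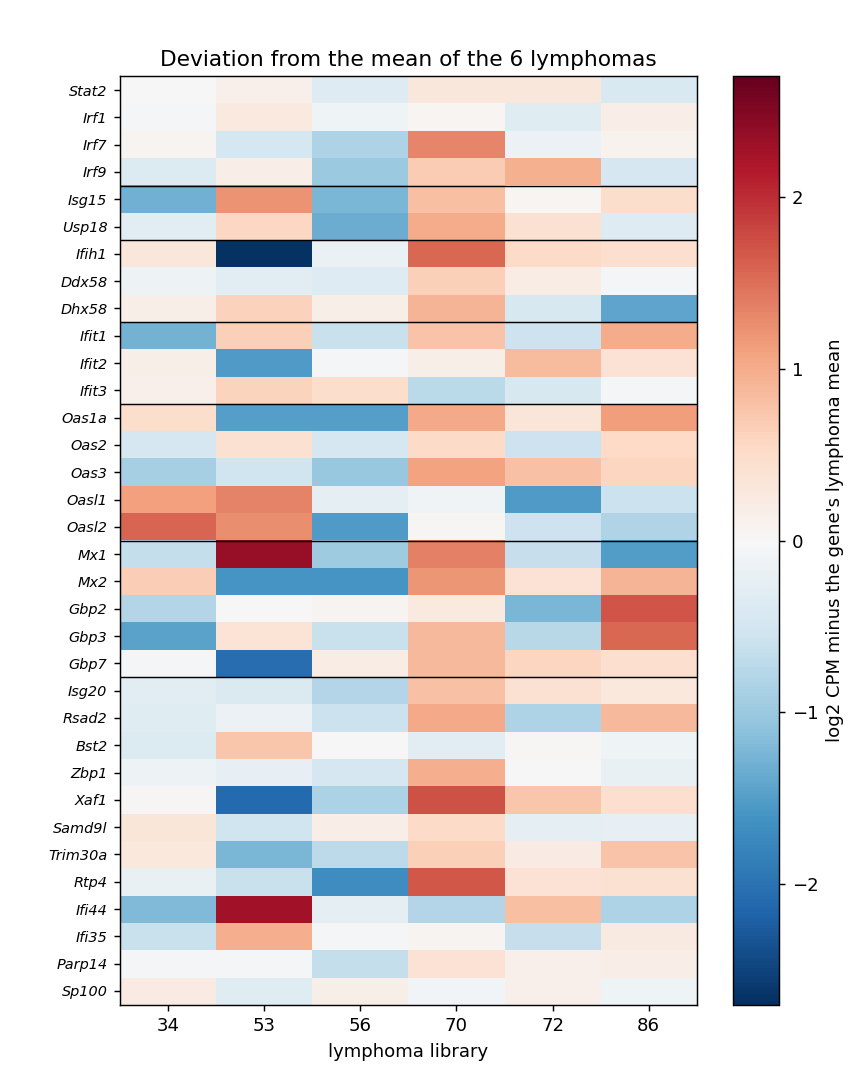
Heat map of log2 CPM (prior count 2) of each gene in each lymphoma, minus the gene's mean over the 6 lymphomas; red is above and blue below that mean. The column of lymphoma 70 is mostly red, that of lymphoma 56 mostly blue, and that of lymphoma 53 holds both.

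Upstream parts of the pathway were read from lists of other genes. Of 21 interferon genes in 22 table rows, 1 was tested. Ifnb1 and the listed interferon alpha genes had 0 counts in every library of both groups, apart from 1 count of Ifna13 in a lymphoma. Reads that align to several places are not counted, so for family members with near-identical copies 0 counts do not show absence of their RNA. Ifng (interferon gamma) had 0 to 10 counts per lymphoma, and 6.2, 1.92 and 21.2 CPM in CD4 1, 2 and 3. Its log2 fold change was -5.66 (SE 1.10, edgeR adjusted p 0.00139), and it was -4.39 without CD4 3 and -6.73 without lymphoma 86.

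Among 6 receptor chains, 3 were lower and 1 higher, with a median log2 fold change of -0.97. These are few genes, and 46.6% of all tested genes passed in either direction. Ifnar1, a chain of the type I receptor, fell from 78.7, 98.5 and 88.0 CPM in CD4 to 10.7 to 21.6 CPM in lymphoma (log2 fold change -2.36, SE 0.21, edgeR adjusted p 5.06e-06). Its partner Ifnar2, named after its values were seen, averaged 73.6 CPM in CD4 (SD 2.22, n = 3) and 86.2 CPM in lymphoma (SD 32.4, n = 6), with no change past the threshold (edgeR adjusted p 0.501). Ifngr2, of the interferon gamma receptor, fell by 0.96, and Il10rb, a chain shared with the interferon lambda receptor, by 1.72. Ifnlr1, the specific chain of that receptor, had at most 1 count in CD4 and 5 to 29 counts in lymphoma, and its mean was at least 2.64-fold higher. The bound does not describe every lymphoma, since the lowest, lymphoma 72, had 0.327 CPM.

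Of 8 listed kinases, STAT factors and their inhibitors, 7 were lower and 0 higher, beside 21.9% and 24.7% of all tested genes. Jak1 fell by 0.92, Stat3 by 1.82, Socs1 by 1.10 and Pias1 by 0.71 on the log2 scale, and the feedback inhibitor Socs3 by 5.38. Jak2 fell by 0.89 (edgeR adjusted p 0.0190), a call lost without lymphoma 56, CD4 1 or CD4 3 (0.0502, 0.0922 and 0.0523). The call of Pias1 was lost without CD4 3 (0.0749) and with lymphomas 34, 70 and 72 averaged (0.0524).

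Of 17 genes of nucleic acid sensing, 15 were tested, 10 were lower and 1 was higher, with a median log2 fold change of -0.97. The shares over all tested genes were 21.9% lower and 24.7% higher. The one that rose was Mb21d1, which encodes the DNA sensor cGAS, at 38.5 to 48.2 CPM in the lymphomas and 11.2, 17.5 and 7.61 CPM in CD4 (log2 fold change 1.85, SE 0.25, edgeR adjusted p 1.22e-04). Its adaptor STING (Tmem173) moved the other way, from a mean of 93.8 CPM in CD4 (SD 22.2, n = 3) to 38.0 CPM in lymphoma (SD 7.03, n = 6), a log2 fold change of -1.30. The kinase Tbk1 fell by 0.83 (edgeR adjusted p 0.0117, and 0.0630 without CD4 3), Ikbke by 1.65, the adaptor Myd88 by 0.97 and the factor Irf3 by 0.64. The fall of Traf3 (0.47, edgeR adjusted p 0.0318) did not hold in 8 alternatives, 6 of which left out lymphoma 34, 56, 70 or 72 or CD4 1 or 2 (edgeR adjusted p 0.0541 to 0.129). Tlr7 fell by 3.40, the endosomal chaperone Unc93b1 by 3.17, Irf5 by 3.36 and the DNA sensor Aim2 by 3.87. Tlr7 changed by -4.00 without lymphoma 86 and Aim2 by -5.18 without lymphoma 53. Tlr7, Unc93b1 and Irf5 are also expressed by B cells, whose marker sums differed between the groups as given above.

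Among 5 other IRF-related genes, 4 were lower, among them Irf2, Irf4 and Irf8, against 21.9% of all tested genes. Irf2 fell from a mean of 347 CPM in CD4 (SD 6.16, n = 3) to 90.6 CPM in lymphoma (SD 8.34, n = 6), a log2 fold change of -1.94. Irf4 fell by 3.73 on the log2 scale (-4.48 without lymphoma 86). Irf8, which is also a plasmacytoid and B cell gene, had 269 CPM in lymphoma 53 and 31.9 to 72.3 CPM in the other lymphomas, against 311 to 328 CPM in CD4. Its log2 fold change was -2.01 (edgeR adjusted p 0.0365) and -2.93 without lymphoma 53. In 10 alternatives the call did not hold, including the removal of any other single library (edgeR adjusted p 0.0529 to 0.0790).

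A wider list of other interferon-induced genes moved in the same direction for the most part. Of 69 table rows, 63 were tested, 49 were lower and 3 were higher, with a median log2 fold change of -1.85. Over all tested genes 21.9% were lower and 24.7% higher. The largest falls were those of Trim30b (-6.25), Ms4a4c (-5.49), Ifi27l2a (-5.37), Iigp1 (-5.33, and -6.14 without lymphoma 86) and Phf11a (-5.13). No lymphoma had more than 5 counts of Trim30b or 4 of Phf11a, so the size of these fitted changes is loose. The 3 that rose were the immunoproteasome subunit Psmb8 (log2 fold change 0.77, SE 0.15, edgeR adjusted p 0.00118), the galectin gene Lgals9 (2.03-fold, edgeR adjusted p 0.00509) and the galectin-binding protein gene Lgals3bp (log2 fold change 1.12, SE 0.16, edgeR adjusted p 1.81e-04). Psmb8 rose from a mean of 423 CPM in CD4 (SD 27.4, n = 3) to 720.2 CPM in lymphoma (SD 82.3, n = 6). Cmpk2, the neighbour of Rsad2 on chromosome 12, was picked after its values were seen. Its mean was 7.48 CPM in CD4 (SD 2.44, n = 3) and 7.06 CPM in lymphoma (SD 2.84, n = 6), and it did not pass the test either (edgeR adjusted p 0.883).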

How the data were processed

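Reads from transcript 3′ ends were counted per gene by the authors, and the deposited table holds raw read counts for 9 libraries per the file headers. HISAT2, SAMtools, HTSeq and FastQC and the builds mm10 and GRCm38 are named, without versions, per the submitters' processing notes. The annotation release and strand setting are not given in the sources used here. Reads aligned to several places (17.8% of reads in lymphoma, 12.8% in CD4) and ambiguous reads stayed out of gene counts, library sizes and tests. The number of columns matching no sample was 0.

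Tests used edgeR 4.0.16 under R 4.3.3 (filterByExpr, minimum count 10; TMM; glmQLFit robust; glmQLFTest; no covariate; all 9 libraries), with Benjamini-Hochberg adjustment over 15401 genes and a threshold of 0.05. SE is the absolute log2 fold change over the square root of F. CPM uses TMM-scaled library sizes, and log2 CPM a prior count of 2. A count of 3 was the floor, 0.184 to 0.360 CPM by library, covering counting error only, and at-least folds use the highest floor of the group. Alternatives were other scalings, filters and thresholds, DESeq2 1.42.0, limma voom (limma 3.58.1), averaging lymphomas 34, 70 and 72, and leaving out each library.

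The genes and lists were chosen with earlier results of these data known. Named genes are the 34 members, every gene past the threshold in the small pathway lists, and the 5 largest rises and falls of the wider list; 2 genes of the pathway lists are not reported here. Sex-linked genes were added later. Positions come from GENCODE M21 and promoters from RefSeq, both on GRCm38. Dhx58, Mx1, Mx2, Oas2, Parp14, Rtp4, Usp18 and Zbp1 had no promoter entry.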

Additional observations from a re-analysis of the deposited data

Results flagged for a closer look

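For each of the 34 genes and their mean, 35 results in all, the gap between the highest or lowest lymphoma and its nearest neighbour was divided by the range of the 6 lymphomas in log2 CPM and compared with Dixon's 95% critical value of 0.625. The value was passed by 4 results, where chance gives 1.75 for independent, normally distributed values. The share of all tested genes passing it was not computed. Lymphoma 53 stood apart in 3 of the 4 results, as the lowest library for Ifit2 (ratio 0.626) and Gbp7 (0.684) and as the highest for Bst2 (0.645). Over all tested genes lymphoma 53 was the highest lymphoma in 30.5% and the lowest in 33.3%, so its flags are not particular to these genes. Lymphoma 70 stood apart as the highest for Zbp1 (0.679), at 7.72 CPM against 2.76 to 3.86 CPM in the other lymphomas. For Gbp7 lymphoma 53 had 4.84 CPM and the others 19.99 to 38.2 CPM, and for Bst2 it had 22.7 CPM and the others 10.3 to 13.6 CPM. The mean over the 34 genes was not among them (lymphoma 70 highest, ratio 0.394).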

How the results depend on the processing

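The number of the 34 genes lower in lymphoma was 31 or 32 under RLE, upper quartile and library size scaling, no filter, DESeq2, limma voom, a fit without robust, lymphomas 34, 70 and 72 averaged and the 2-fold rule. It was 27 at an adjusted p under 0.01, and 22 of 24 tested with at least 10 counts in every library. Leaving out 1 library gave 27 to 32, the lowest without CD4 2. The number higher was 0 in all of these. The median log2 fold change ranged from -2.73 (without lymphoma 70) to -2.16 (at least 10 counts in every library), and that over all tested genes from -0.06 to 0.20. The median SD among lymphomas was 0.76 with a prior count of 5 and 0.78 to 0.89 without 1 lymphoma. Of 602 gene and setting pairs, 588 kept direction and side, 12 lost the call and 0 gained one. Ifit2 changed sign without lymphoma 53 (0.07) and without CD4 3 (0.12), where leaving out 1 library gave -0.32 to 0.12, with no call; the cause was not tested. A total of 25 genes kept their call in every alternative run in which they were tested. Among them, Ifih1, Oas2, Oasl2, Mx1, Mx2, Gbp2, Xaf1 and Ifi44 were not tested with at least 10 counts in every library. No paired analysis was possible because the groups share no replicate numbers. Counts of 0 to 3 in some lymphomas limit Oas1a, Mx1, Mx2, Ifih1 and Ifi44.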
